A study of Mus musculus with 6 samples.

Results

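The paraoxonase gene cluster of mouse chromosome 6 holds Pon1, Pon3 and Pon2, and it was described here with its flanking genes Sgce, Peg10 and Ppp1r9a on one side and Asb4 and Pdk4 on the other. The members were the probe sets whose array annotation gave exactly 1 symbol, being one of these 8 names. All 8 genes were found, with 93 probe sets, among 20416 genes measured in all. The cluster was selected on a measured value, the log2 difference of Pon3 between the clones, and the other members were taken for their position beside it. The differences of the members are therefore a description, and nothing is read from where the members fall in the test over all genes.

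RNA came from MIN6-4N, a mouse pancreatic beta cell line, in 2 groups of 3 arrays: cells stably carrying the empty plasmid pcDNA3.1 (vector) and cells stably carrying the same plasmid with mouse Meg3, an imprinted non-coding RNA gene (Meg3). Both groups had passed through nucleofection and 5 weeks of selection in 750 µg/ml G418, and both were then kept in low glucose medium with 15% serum and 500 µg/ml G418. Each group was 3 cultures of 1 clone, so the spread is that between cultures of a clone. What Meg3 does and what else sets these clones apart cannot be told apart. The titles and the protocol name the Meg3 clone differently, and the descriptions speak of sorted cells, which no protocol mentions.

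Paraoxonases are calcium-dependent enzymes that hydrolyse lactones, and they are known for protecting lipids from oxidation. PON1 and PON3 are made mainly in liver and travel on high-density lipoprotein, whereas PON2 is a membrane-bound intracellular enzyme of many tissues. The surrounding region is imprinted: Sgce and Peg10 are expressed from the paternal allele, and Asb4, like Ppp1r9a, Pon2 and Pon3 in placenta, has been described as maternally biased. The arrays do not separate alleles.

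Meg3 itself had log2 values of 5.63, 6.00 and 5.88 in the vector cultures and 7.24, 7.91 and 7.53 in the Meg3 cultures. The gene value of the transfected gene was thus higher in every Meg3 culture. Of its 5 probe sets, 4 were higher with groups that did not overlap, where 6.0% of all probe sets were. The remaining 1 was lower, at -0.22, and its groups overlapped. Vector replicate 2 and Meg3 replicate 1 stood apart: their probe sets scattered around the median of the remaining arrays with SDs of 0.86 and 0.64 (log2), compared with 0.43 to 0.48 for the 4 others. Of 9 measured beta cell markers, 8 exceeded the all-gene median in both clones and 0 were called by limma (1 higher, 1 lower at an unadjusted p under 0.05). The glucagon gene Gcg, which marks alpha cells, was also bright, with mean log2 values of 12.82 and 12.66. It was 1 of 4 measured markers of other islet cells. Of these, 2 exceeded the all-gene median in both clones, and 2, Sst and Hhex, lay below that median in both. Of 8 hepatocyte markers, 7, including Alb, lay below that median in each clone and 0 were called by limma (also 0 at an unadjusted p under 0.05). Their summed log2 value was 42.9 to 45.6 over the vector arrays and 43.7 to 44.4 over the Meg3 arrays. Of 6 fibroblast, 5 acinar, 5 leukocyte and 4 other islet markers measured, 0 were called by limma, and 1 of them, the T cell gene Cd3e, had an unadjusted p under 0.05 (log2 difference -0.56, SE 0.14). Without the arrays that stood apart Cd3e was called lower (-0.72, limma adjusted p = 0.00238), as it was with 1 array left out in 1 of 6 fits, and 0 of the other markers were.

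Pon3, the paraoxonase in the middle of the cluster, was the member that separated the clones most. Its log2 value was 8.22, 8.47 and 8.25 in the vector cultures and 6.48, 6.13 and 5.87 in the Meg3 cultures. The groups lay far apart, and the lowest vector culture was above the highest Meg3 culture by more than the whole spread within either clone. The means were 8.31 ± 0.13 (SD, n = 3) and 6.16 ± 0.30 (SD, n = 3), a 4.45-fold lower value in the Meg3 clone (log2 difference -2.15, SE 0.17). Only 2 of the 20416 genes had a lower difference, which put Pon3 at rank 3 from the lowest. Without the arrays that stood apart the difference was -2.23 (SE 0.11).

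A probe set of these arrays reads roughly 1 exon, and Pon3 has 10. All 10 were lower in the Meg3 clone, by -2.89 to -0.75 on the log2 scale with a median of -2.23, and in 9 of them the groups did not overlap. Among all probe sets, 5.61% had groups that did not overlap with the Meg3 clone lower, and among the 868 genes with 10 probe sets, 4.72% had every probe set lower. These shares are background only, since the same contrast chose Pon3. The brightest probe set, 10542994, read 11.13, 11.75 and 11.27 in the vector cultures and 9.19, 8.65 and 7.64 in the Meg3 cultures. It had the largest difference of the gene and also a wide spread among the Meg3 cultures, which did not reach the vector values. Probe set 10543001 read 10.43, 10.30 and 10.38 against 8.22, 8.46 and 8.48, a tight pattern in both clones.

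Probe set 10542997 was the exception among the 10. It read 3.49, 5.28 and 3.40 in the vector cultures and 3.40, 3.29 and 3.24 in the Meg3 cultures, so it was dim on every array, highest on vector replicate 2, and its groups met. Probe set 10542995 split the Meg3 cultures, with 6.44 in replicate 1 and 4.34 and 4.28 in replicates 2 and 3, against 7.28, 7.90 and 6.97 in the vector cultures. Both readings on the arrays that stood apart were higher than those of their own clone.

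**Figure D1:**
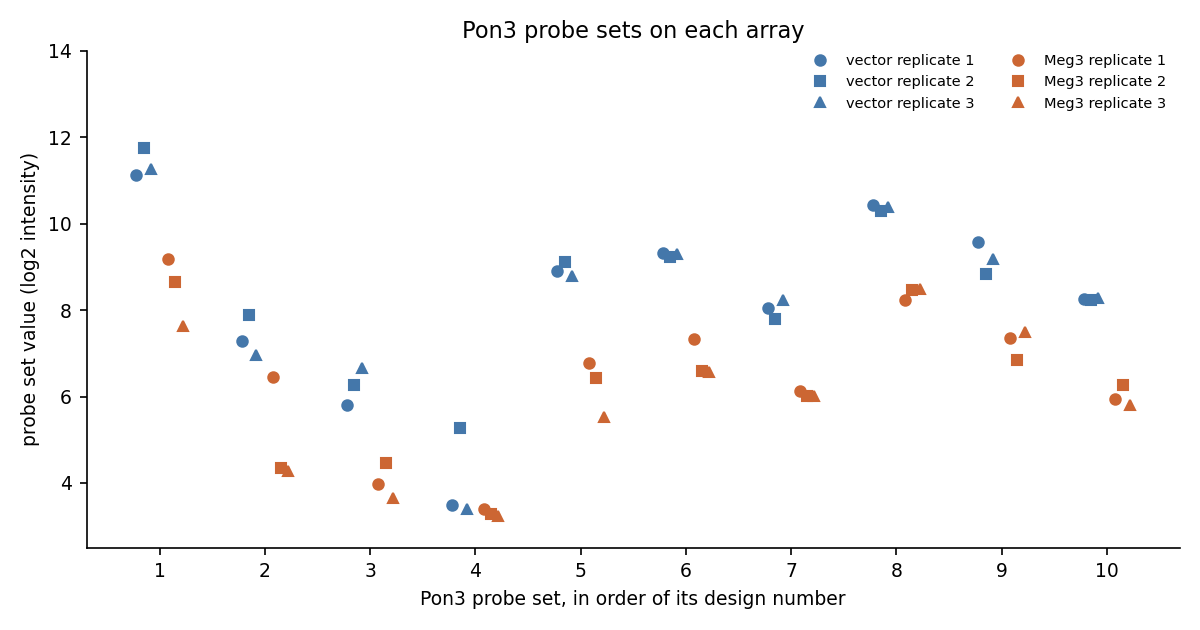
Log2 intensity (y axis) of each of the 10 Pon3 probe sets (x axis, in order of their design number) on every array, with vector cultures in blue, Meg3 cultures in orange and the replicate given by the symbol. In 9 probe sets all 3 vector points lie above all 3 Meg3 points, and the remaining one, at position 4, is near 3.4 apart from vector replicate 2 at 5.28.

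The 2 other paraoxonase genes lie on either side of Pon3 and run on the same strand. The 250 bases before the start of each are printed because the genes are neighbours and relatives, and Pon3 is the one that separated the clones widely. Sequences and coordinates are those of RefSeq on GRCm38.p6, minus strand, 5′ to 3′, with CpG pairs in capitals: chr6:5193947-5194196 for Pon1, chr6:5256234-5256483 for Pon3 and chr6:5298341-5298590 for Pon2.
Pon1: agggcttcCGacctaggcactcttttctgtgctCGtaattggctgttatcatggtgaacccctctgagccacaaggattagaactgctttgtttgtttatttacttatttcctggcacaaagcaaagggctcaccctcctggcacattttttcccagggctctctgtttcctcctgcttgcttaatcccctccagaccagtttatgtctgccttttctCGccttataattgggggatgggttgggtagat
Pon3: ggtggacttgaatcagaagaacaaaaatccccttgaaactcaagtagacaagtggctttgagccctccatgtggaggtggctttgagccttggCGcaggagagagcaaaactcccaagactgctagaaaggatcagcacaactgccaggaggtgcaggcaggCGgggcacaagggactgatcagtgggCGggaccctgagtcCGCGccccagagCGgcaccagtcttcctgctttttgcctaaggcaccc
Pon2: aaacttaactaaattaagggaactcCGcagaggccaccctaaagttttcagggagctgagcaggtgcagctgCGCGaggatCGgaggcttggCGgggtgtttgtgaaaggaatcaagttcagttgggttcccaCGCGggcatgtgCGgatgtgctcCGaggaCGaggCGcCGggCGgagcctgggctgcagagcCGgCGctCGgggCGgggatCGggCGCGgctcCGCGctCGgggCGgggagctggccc

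The windows differed in CpG content. Pon1 had 3 CpG pairs, Pon3 6 and Pon2 24, where the median of 32851 windows of the same length was 6. The GC box GGGCGG, searched on both strands, occurred 0 times before Pon1, 1 time before Pon3 and 3 times before Pon2, and 32.7% of all windows hold it. CCAAT, on both strands, occurred 2 times before Pon1 and was not found in the others (33.9% of all windows hold it), and TATAAA, on both strands, was in none of the 3 (12.4% of all windows). Matches of letters describe the windows and are no binding sites.

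Pon1, the lipoprotein-bound enzyme, was dim and overlapped between the clones. Its log2 values were 4.72, 5.44 and 4.71 in the vector cultures and 5.07, 4.82 and 4.93 in the Meg3 cultures. The highest value belonged to vector replicate 2, an array that stood apart, and the other vector cultures lay below all Meg3 cultures. The difference was -0.02 (SE 0.21), and 0.16 (SE 0.10) without the arrays that stood apart. Of its 9 probe sets, 6 were lower and 3 higher, from -0.55 to 0.51, and in 0 of them did the groups separate. None of the 9 was brighter than the median of all probe sets (7.22).

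Pon2, the intracellular enzyme, was also dim as a gene mean. Its values were 5.11, 5.69 and 5.12 in the vector cultures and 5.17, 5.03 and 5.02 in the Meg3 cultures, and the groups overlapped. The difference was -0.23 (SE 0.17), and -0.09 (SE 0.09) without the arrays that stood apart. Its 12 probe sets ran from -1.09 to 0.32, with 9 lower. In 2 of them the groups did not overlap, both lower, where 5.61% of all probe sets were. The one at -1.09, probe set 10543011, owed its mean to vector replicate 2, which read 6.19 beside 4.27 and 3.78 in the other vector cultures. Probe set 10543016 alone was bright and read 10.27, 10.26 and 10.18 against 9.83, 10.39 and 10.35, a difference of -0.04. At that bright probe set the clones overlapped, whereas at every bright Pon3 probe set (5 of 5) they did not. Nothing is read from this contrast, since the same clone difference chose Pon3 and Pon2 had only 1 bright probe set. Brightness was also set by the mean over both clones. Pon3 probe sets 10542998 and 10542999 were bright through their vector means (8.9 and 9.3). Their Meg3 means (6.2 and 6.8) lay below the median of all probe sets.

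**Figure D2:**
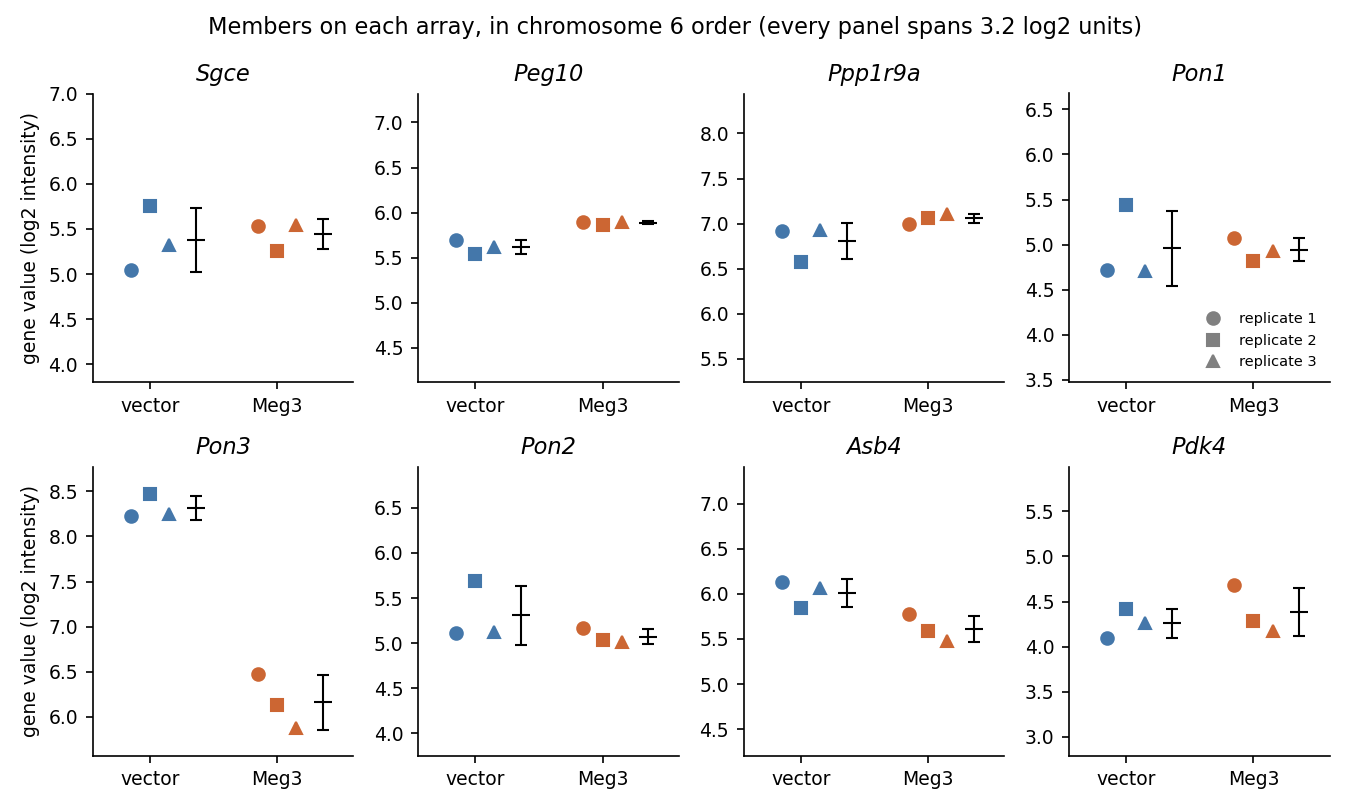
Gene value (y axis, log2 intensity) of the 8 members on each array, with vector cultures in blue and Meg3 cultures in orange, the replicate given by the symbol, and the mean with its SD (n = 3) in black. Every panel spans the same number of log2 units, and Pon3 is the panel with a wide gap, from 8.31 to 6.16.

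Sgce encodes epsilon-sarcoglycan, a membrane glycoprotein, and it shares a start region with Peg10. Its log2 values were 5.05, 5.75 and 5.32 in the vector cultures and 5.53, 5.25 and 5.54 in the Meg3 cultures, which overlapped. The difference was 0.07 (SE 0.19), and 0.21 (SE 0.13) without the arrays that stood apart. Of the 15 probe sets, 9 were higher and 6 lower, and in 0 of them did the groups separate. Probe set 10542972 read 12.58 on vector replicate 2 and 10.24 on Meg3 replicate 1, but 7.43, 7.59, 7.25 and 7.97 on the other arrays, which gave this probe set alone a difference of -0.72. The highest Sgce reading is thus on the arrays that stood apart, in both clones.

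Peg10, a gene derived from a retrotransposon and needed in placenta, was slightly higher in the Meg3 clone. Its values were 5.69, 5.54 and 5.62 in the vector cultures and 5.90, 5.87 and 5.89 in the Meg3 cultures. The groups did not overlap, and the difference was 0.27 (SE 0.11), a 1.20-fold higher value. It rests on 2 probe sets, at 0.28 and 0.26. In both the groups were apart with the Meg3 clone higher, where 6.0% of all probe sets were. Neither was brighter than the median of all probe sets.

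Ppp1r9a encodes neurabin, which binds actin and protein phosphatase 1. It read 6.92, 6.58 and 6.93 in the vector cultures and 6.9995, 7.07 and 7.11 in the Meg3 cultures, so the groups were apart by a narrow margin. The difference was 0.25 (SE 0.13), with vector replicate 2 the lowest value, and 0.16 (SE 0.09) without the arrays that stood apart. Its 26 probe sets ran from -0.75 to 0.90, with 18 higher and 8 lower. All 12 bright probe sets were higher in the Meg3 clone, by 0.23 to 0.90 with a median of 0.45, and in 7 of these 12 the groups did not overlap. For all probe sets of the arrays, bright and dim, 6.0% had groups apart with the Meg3 clone higher. The share among bright probe sets alone was not computed. Some of the differences of the bright Ppp1r9a probe sets leaned on the arrays that stood apart. The 0.90 belonged to probe set 10536309, where vector replicate 2 read 6.73 beside 8.40 and 8.21. In probe set 10536310, vector replicate 2 read 6.09 and Meg3 replicate 1 read 8.10. There the other vector cultures (7.81 and 7.78) lay above the other Meg3 cultures (7.50 and 6.85). Probe set 10536306 was a tight one among the bright, with 9.06, 8.92 and 9.11 against 9.60, 9.53 and 9.51. Others scattered widely, such as 10536315, which overlapped with SDs of 0.41 in the vector cultures and 1.21 in the Meg3 cultures. The mean over all 26 probe sets thus gave a smaller difference than the bright ones did.

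Asb4, a maternally expressed gene that encodes a substrate adaptor of ubiquitin ligases, was lower in the Meg3 clone. Its values were 6.13, 5.84 and 6.07 in the vector cultures and 5.77, 5.58 and 5.48 in the Meg3 cultures, and the groups did not overlap. The difference was -0.40 (SE 0.14), a 1.32-fold lower value, and -0.57 (SE 0.10) without the arrays that stood apart. All 8 probe sets were lower, by -1.01 to -0.01, with the groups apart in 2. Over all probe sets, 5.61% had groups apart with the Meg3 clone lower. How many genes with 8 probe sets had all of them lower was not counted. The largest, probe set 10536327, read 7.20, 6.96 and 7.54 against 5.86, 6.45 and 6.35. The brightest, probe set 10536333, overlapped, with 6.96, 7.01 and 6.92 against 7.39, 6.56 and 6.46. None of the 8 was brighter than the median of all probe sets.

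Pdk4 encodes a kinase that inhibits the pyruvate dehydrogenase complex and is known to be induced in fasting. It was dim, with 4.10, 4.42 and 4.26 in the vector cultures and 4.69, 4.28 and 4.18 in the Meg3 cultures. The groups overlapped, and the difference was 0.12 (SE 0.16). Of 11 probe sets 1 was bright, at a difference of -0.04, and the others ran from -0.23 to 0.43.

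Across the 8 members, 4 differences were negative and 4 positive. The groups did not overlap for 4 of 8, Pon3 and Asb4 lower and Peg10 and Ppp1r9a higher, where 12.8% of all genes had groups that did not overlap (6.39% lower and 6.41% higher). Pon3 was the 1 member past the threshold over all genes (limma, Benjamini-Hochberg adjusted p under 0.05), where 0.666% of genes were past it. Because this contrast chose the cluster, nothing is read from either count. The remaining 7 members had differences from -0.40 to 0.27. Of their 83 probe sets, 5 (6.02%) had groups apart with the Meg3 clone lower, where 5.61% of all probe sets did, and 11 (13.3%) with the Meg3 clone higher, where 6.0% did. Of those 11, 8 belonged to Ppp1r9a. Vector replicate 2 gave the highest value of its clone for 5 members and the lowest for 3, and Meg3 replicate 1 the highest for 6. The part of these arrays in the results of the dim members was not tested beyond the values without them.

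**Figure D3:**
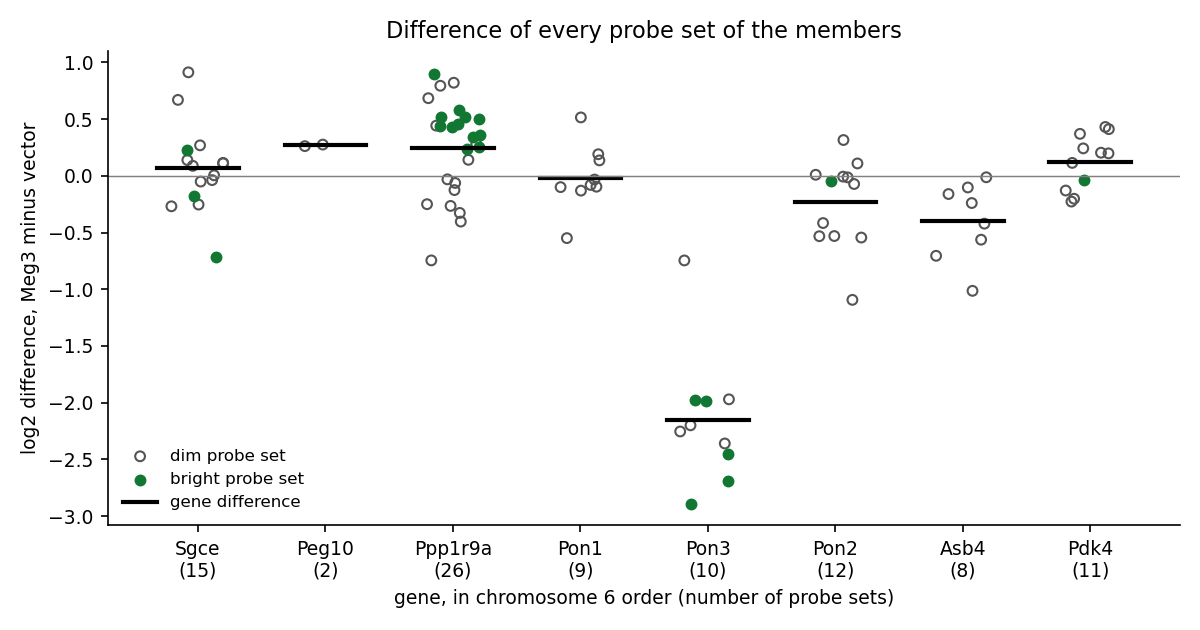
Log2 difference, Meg3 minus vector (y axis), of each of the 93 probe sets of the members (x axis, genes in chromosome 6 order with the number of probe sets), filled where the probe set is brighter than the median of all probe sets, with the gene difference as a black bar. The Pon3 probe sets lie between -2.89 and -0.75, and all 12 filled Ppp1r9a points lie above 0.

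The genes that surround the cluster on chromosome 6 were tested with limma over all 20416 genes. Of 18 such neighbours, 1 was lower (Benjamini-Hochberg adjusted p under 0.05) and 0 were higher, where 0.465% and 0.201% of all genes were. The median difference of the neighbours was -0.03, beside 0.01 for all genes. The nearest measured gene before the members, Casd1, which acetylates sialic acids, differed by -0.03 (SE 0.16). The nearest after them, Dync1i1, a dynein intermediate chain, was dim and differed by 0.01 (SE 0.14).

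Slc25a13 was the 1 neighbour past the threshold, lower in the Meg3 clone. It encodes citrin, the mitochondrial aspartate-glutamate carrier, and follows Dync1i1 in the order of genes. It read 7.06, 6.86 and 7.02 in the vector cultures and 5.89, 5.67 and 5.78 in the Meg3 cultures. The clones were clearly apart, with cultures of each close together. The difference was 2.29-fold (log2 difference -1.20, SE 0.12; limma adjusted p = 0.00663). Of 20 probe sets 19 were lower, and in 13 the groups did not overlap. Over all probe sets, 5.61% had groups apart with the Meg3 clone lower. The call was lost without Meg3 replicate 2 (limma adjusted p = 0.0560) or without Meg3 replicate 3 (0.0637), and held with each other array left out. It was also lost with the replicate number as a block (limma adjusted p = 0.0535), and with the brightest probe set or the median of the probe sets in place of their mean (limma adjusted p = 0.107 for each).

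Samd9l, an interferon-induced gene at the far end of the neighbours and chosen after its value was seen, had a larger difference and a larger spread. Its values were 9.66, 10.15 and 9.54 in the vector cultures and 8.89, 8.07 and 8.37 in the Meg3 cultures, which did not overlap. The difference was -1.34 (SE 0.24), and it did not pass the threshold (limma adjusted p = 0.0602), although it did without the arrays that stood apart (1.83e-04). All 5 of its probe sets had groups apart with the Meg3 clone lower, where 5.61% of all probe sets did. Between Samd9l and Pon3 and between Pon3 and Slc25a13 lie members and neighbours with differences from -0.40 to 0.27, so these 3 genes are not adjacent.

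**Figure D4:**
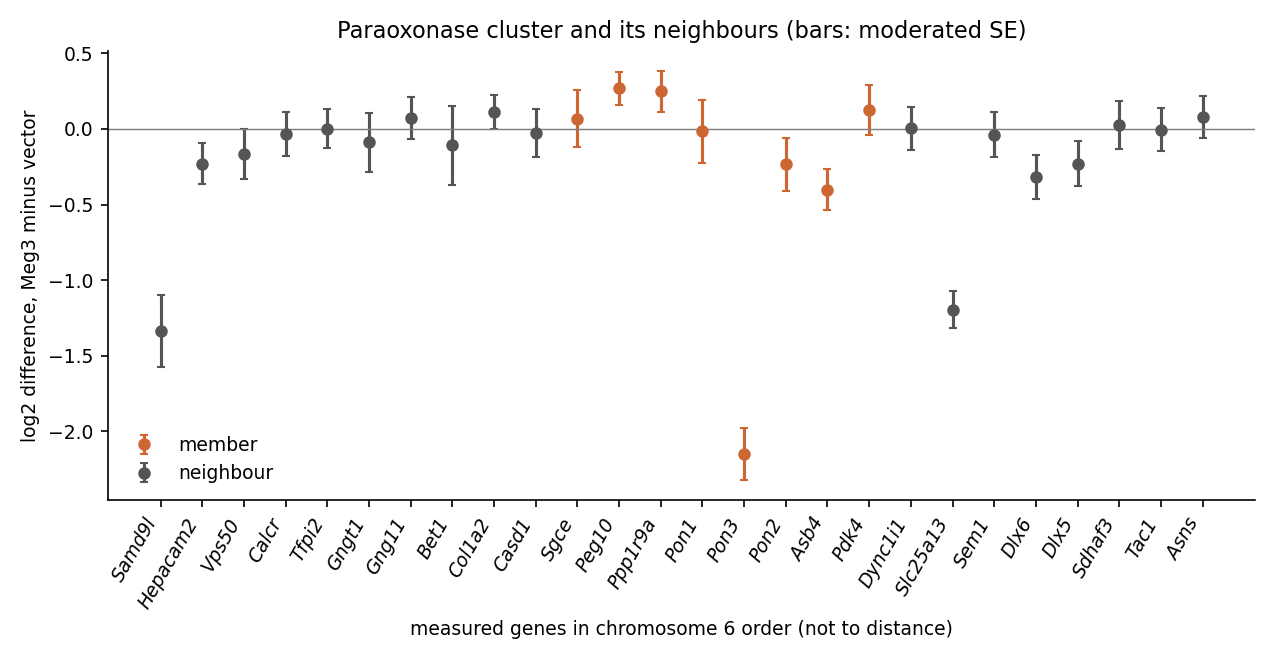
Log2 difference, Meg3 minus vector, with its moderated SE (y axis) for 26 measured genes in their order on chromosome 6 (x axis, not to distance), with members in orange and neighbours in grey. Pon3 at -2.15, Samd9l at -1.34 and Slc25a13 at -1.20 stand below the rest, with other genes between them.

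No antioxidant enzyme, a group that removes oxidants and their products, passed the test with all arrays. Of 30 measured, 0 were called by limma (at an unadjusted p under 0.05, 4 lower and 0 higher), with a median difference of -0.02. Over all genes 4.28% were lower and 2.68% higher at that unadjusted p, which is the background for this count and those of the other lists. The brightest were Sod1, the cytosolic superoxide dismutase (0.02, SE 0.12), and Prdx2, a peroxiredoxin (0.06, SE 0.22). Without the arrays that stood apart 3 were called lower, where 4.01% of all genes were. Those 3, picked once their values were known, were the glutathione peroxidase gene Gpx2, the quinone reductase gene Nqo1 and the peroxiredoxin gene Prdx4, at -1.21, -0.90 and -0.44 in that fit (limma adjusted p = 0.0310, 0.00215 and 0.0310). With all arrays they were at -1.02 (SE 0.29), -0.58 (SE 0.24) and -0.49 (SE 0.15).

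Genes of lipoproteins and cholesterol efflux, the setting in which PON1 and PON3 circulate, had 0 of 22 called by limma (also 0 at an unadjusted p under 0.05), with a median of -0.0016. The lipoprotein lipase gene Lpl differed by -0.35 (SE 0.16) and the chaperone gene Clu by -0.43 (SE 0.23). Without the arrays that stood apart these 2 were called lower (limma adjusted p = 0.0117 and 0.00940), where 4.01% of all genes were. The apolipoprotein gene Apoa1, whose product carries paraoxonases, differed by 0.02 (SE 0.11). It was picked once its value was known.

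The pyruvate dehydrogenase complex and its regulators, on which Pdk4 acts, had 0 of 14 called by limma (3 lower at an unadjusted p under 0.05) and a median of -0.04. Dld and Pdhb, subunits of the complex, differed by -0.0038 (SE 0.18) and -0.38 (SE 0.13). Of 20 measured fatty acid oxidation and PPAR-regulated genes, which are often induced with Pdk4, 0 were called by limma (1 lower at an unadjusted p under 0.05), with a median of 0.02. The trifunctional protein gene Hadha differed by 0.34 (SE 0.21) and the acyl-CoA dehydrogenase gene Acadl by -0.03 (SE 0.12). Without the arrays that stood apart the carnitine palmitoyltransferase gene Cpt1b was called higher and the uncoupling protein gene Ucp2 lower, both picked once their values were known. They were at 0.54 and -0.56 in that fit (limma adjusted p = 0.0120 and 0.0199), where 1.43% of all genes were called higher and 4.01% lower. With all arrays they were at 0.23 (SE 0.21) and -0.57 (SE 0.29).

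Relatives of the flanking members, that is other sarcoglycans, the second neurabin Ppp1r9b, other Asb genes and retrotransposon-derived genes, had 0 of 24 called by limma (at an unadjusted p under 0.05, 1 higher and 1 lower), with a median of 0.02. Sgcb, the beta-sarcoglycan gene, differed by -0.29 (SE 0.12) and Ppp1r9b by -0.05 (SE 0.16). The smallest limma adjusted p over these 5 pathway and family lists was 0.290.

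**Figure D5:**
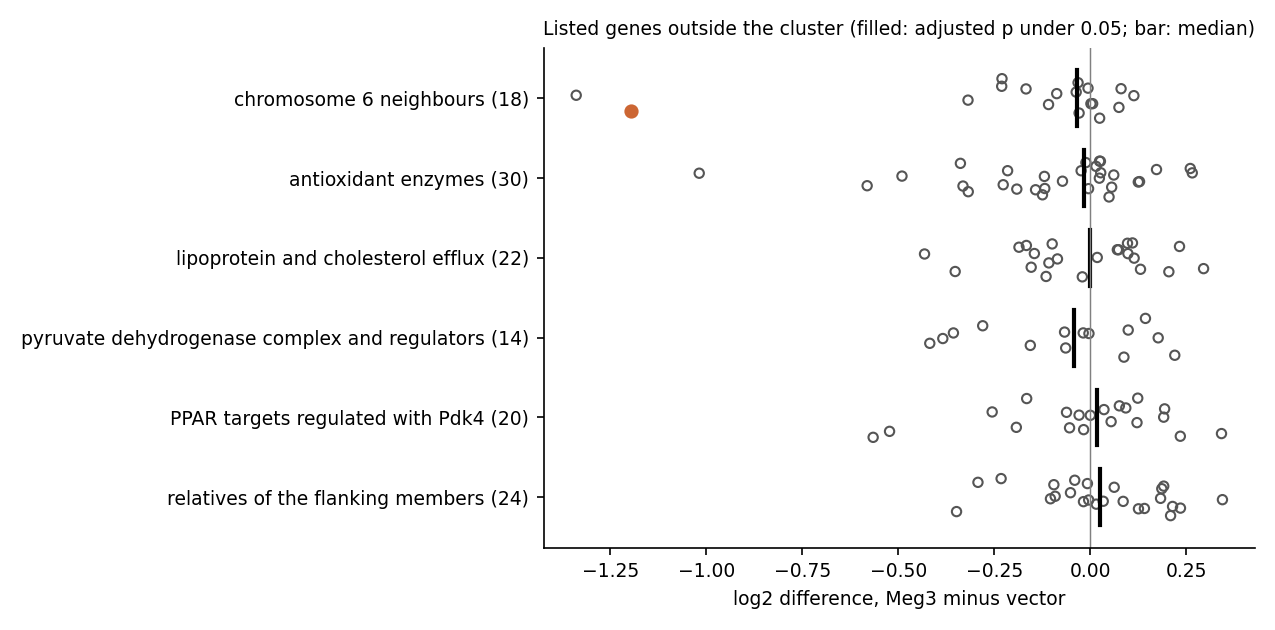
Log2 difference, Meg3 minus vector (x axis), of each measured gene of 6 lists (y axis, with the number of genes), filled where the limma adjusted p is under 0.05, with the list median as a black bar. The 1 filled point is Slc25a13 among the chromosome 6 neighbours at -1.20, and the list medians run from -0.04 to 0.02.

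Likeness to Pon3 over the 6 arrays was the root mean square difference of values centred on each gene's own mean, among 9985 genes above the median in at least 1 clone. Casp4, an inflammatory caspase on chromosome 9, came first at 0.13, with 8.75, 8.99 and 8.70 in the vector cultures and 7.30, 6.64 and 6.59 in the Meg3 cultures. Tnfsf10, which encodes the death ligand TRAIL on chromosome 3, followed at 0.14, with 8.77, 8.77 and 8.59 against 6.82, 6.71 and 6.55. Nrk, a kinase gene on chromosome X, was at 0.23, with 7.72, 7.59 and 7.85 against 6.17, 5.97 and 5.56. In each of these 3 genes Meg3 replicate 1 read highest among the Meg3 cultures, as in Pon3. The ranking itself favours such a shared order, and Meg3 replicate 1 is an array that stood apart. Cldn1 on chromosome 16 ranked 4 at 0.25. Met, the receptor gene for hepatocyte growth factor, is on chromosome 6 like Pon3 and ranked 5 at 0.26. Both lie beyond the 3 genes of the rule, and Met was picked once its value was known. The likeness rests on the same clone difference for which Pon3 was chosen.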

How the data were processed

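Total RNA (6 µg a culture, per the labels' protocols) was hybridised to 6 Affymetrix arrays. The log2 values deposited for each probe set came from RMA, and the submitters' processing notes name Partek too. Their versions and the genome build were not given in the sources used here. RMA is known to shrink differences of dim probe sets, and arrays carry no read depth, so their number limits the precision. Of 241419 probe sets, 212097 had 1 symbol and were averaged per gene (20416 genes), with symbols updated through RefSeq's GRCm38.p6 table, which also gave gene order. The comparison of the clones used limma 3.58.1 under R 4.3.3 (two-sided, no covariates, Benjamini-Hochberg over all genes), and errors of differences are its moderated standard errors. The fit was tested on simulated data, with noise drawn separately for each gene and array. Arrays that stand apart as a whole were not simulated, so that test says nothing about their part. A probe set counted as bright where its mean exceeded 7.22, the median of all.

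The members and gene lists were chosen with earlier results of these data known. Named were all members; from each list up to 2 genes called higher and 2 called lower, or its 2 brightest; the nearest measured gene on either side of the members; Meg3; and the 3 genes most like any member that differed by at least 1 (log2), leaving out predicted or clone-derived names and genes of the olfactory, vomeronasal, immunoglobulin and histone clusters. Alternatives were a replicate block, other normalization and probe set summaries, a filter on dim genes, another variance model and left-out arrays. RefSeq held promoter sequences for 6 of 8 members.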

Additional observations from a re-analysis of the deposited data

How the results depend on the processing

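Pon3 stayed lower in all 12 alternatives run for it, from -2.89 to -2.01. It moved by more than the spread between cultures in 1 of them, the brightest probe set (-2.89), and leaving out 1 array at a time gave -2.31 to -2.01. Pon2, Peg10, Ppp1r9a and Asb4 also kept their sign in all 12. Ppp1r9a and Asb4 moved by more than the spread between cultures in 2 alternatives each, and Pon2 and Peg10 in 0. Ppp1r9a ran from 0.09 (median of probe sets) to 0.43 (brightest probe set) and was 0.13 without vector replicate 2. Asb4 was -0.16 with the brightest probe set and -0.57 without both arrays that stood apart. Peg10 ran from 0.22 to 0.31. Pon2 was -0.04 without vector replicate 2 or with the brightest probe set. By sign alone, Pon1 kept it in 9, Sgce in 10 and Pdk4 in 10.

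The number of genes called over all genes was 136 with all arrays, 40 with the brightest probe set, 58 with the median of probe sets, 30 with the replicate block, 1111 without both arrays that stood apart, and 22 (without Meg3 replicate 3) to 349 (without vector replicate 2) with 1 array left out. For the chromosome 6 neighbours it was 1, and 0 with the brightest probe set, with the median of probe sets or with the replicate block, 2 without both arrays that stood apart, and from 0 (without Meg3 replicate 2 or 3) to 2 (without Meg3 replicate 1 or vector replicate 2) with 1 array left out; the 2 were Slc25a13 and Samd9l. Without both arrays that stood apart the antioxidant enzymes gave 3, the lipoprotein genes 2 and the PPAR targets 2, where the fit with all arrays gave 0, and with 1 array left out the antioxidant enzymes gave 0 to 1, the 1 being Nqo1 without vector replicate 2. The causes were not tested.

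The replicate numbers in the titles are shared between the clones, but deviations from the clone means correlated at -0.61, -0.63 and 0.28 for the same-numbered cultures, and 0 of 6 cultures correlated best with its own number. Few probe sets of Pon1, Pon2, Sgce and Pdk4 exceeded the median of all probe sets (0 of 9, 1 of 12, 3 of 15 and 1 of 11). Asb4 and Peg10 had none that did (0 of 8 and 0 of 2). The SEs of these dim genes were 0.11 to 0.21, and that of Pon3 was 0.17.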
